A study of Oryza sativa Japonica Group with 20 samples.

Results

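Trimethylation of histone H3 at lysine 27 (H3K27me3) was mapped by CUT&Tag, in which a transposase tethered to an antibody cuts and tags the chromatin it sits on, in nuclei of rice root tips. The comparison rests on 4 of the 20 samples of the series: 2 libraries of plt345, in which the genes PLT3, PLT4 and PLT5 are mutated, and 2 libraries of wild type (WT), which the sample names give as cultivar ZH11. All plants were 7 days past germination, untreated, and grown on Murashige and Skoog medium with 14 h of light at 28 °C and 10 h of dark at 24 °C, and the tips were about 0.8 cm long. The sources used here do not give the mutant alleles, the number of plants in a library or whether replicates came from separate plants. The authors' 4 broad peak lists were merged into 27526 regions, each a stretch joined by peaks that overlap in at least 1 library, and presence in a library meant at least 150 bp covered by its peaks. Peak lists exist for 14 samples, and those of H3K4me3, EMF2b and PLT5 are used below only as layers on H3K27me3. The other 6 samples, of IgG and of PLT5 in plt345, were not analysed here.

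H3K27me3 is written by Polycomb repressive complex PRC2 and marks genes that are held silent, often in stretches that cover a whole gene body. The mark is first placed over a small nucleation site and then spreads outwards, so a domain can be described by its core, its edges and its continuity. EMF2b is a rice subunit of PRC2. PLT3, PLT4 and PLT5 are PLETHORA factors, which carry AP2 domains and are known from Arabidopsis as regulators of the root stem cell niche and meristem. A root tip mixes many cell types, so fewer cells with the mark and less mark in each cell cannot be told apart in these data.

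The H3K27me3 map of plt345 was smaller than that of WT. The plt345 libraries held 20841 and 20942 peaks over 27.6 and 27.7 Mb, against 23957 and 24185 peaks over 32.0 and 31.1 Mb in WT. The covered length averaged 27.6 ± 0.0795 Mb in plt345 and 31.6 ± 0.641 Mb in WT (SD, n = 2 each), a ratio of 0.876. Both plt345 values lay below both WT values, with p = 0.333 by a two-sided exact permutation test, which cannot give a smaller p for 2 against 2 libraries. No comparison between the genotypes below can therefore pass 0.05, and words such as lost or narrowed state only that the libraries of the genotypes did not overlap by the given definition. The peaks were also called at lower significance in plt345, with a median −log10 q of 2.73 and 2.59 in plt345 lists and 3.34 and 3.36 in WT lists, while the median fold enrichment was 2.23 and 2.203 in plt345 and 2.13 and 2.19 in WT. Read depth is unknown, and its part in the smaller plt345 lists was not tested.

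The shortfall of peaks in plt345 was deepest at both ends of the width range. The plt345 lists held 3381 and 3411 peaks shorter than 500 bp, against 4520 and 4973 in WT, a ratio of 0.715. Peaks of 4000 to under 8000 bp numbered 170 and 171 in plt345 and 303 and 268 in WT, a ratio of 0.597, and no list had a longer one. The classes between were closer to WT, with ratios of 0.904 for 500 to under 1000 bp, 0.944 for 1000 to under 2000 bp and 0.868 for 2000 to under 4000 bp. In each of these 5 width classes the plt345 libraries lay below the WT libraries. The centre of the distribution moved little. The mean width was 1324 and 1323 bp in plt345 and 1337 and 1287 bp in WT, which overlap. The median was 1073 and 1075 bp in plt345 and 1053 and 995 bp in WT, and the 99th percentile was 3896 and 3910 bp in plt345 and 4100 and 4051 bp in WT. The longest single peak measured 6206 and 6428 bp in plt345, against 6857 and 7442 bp in WT.

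**Figure D1:**
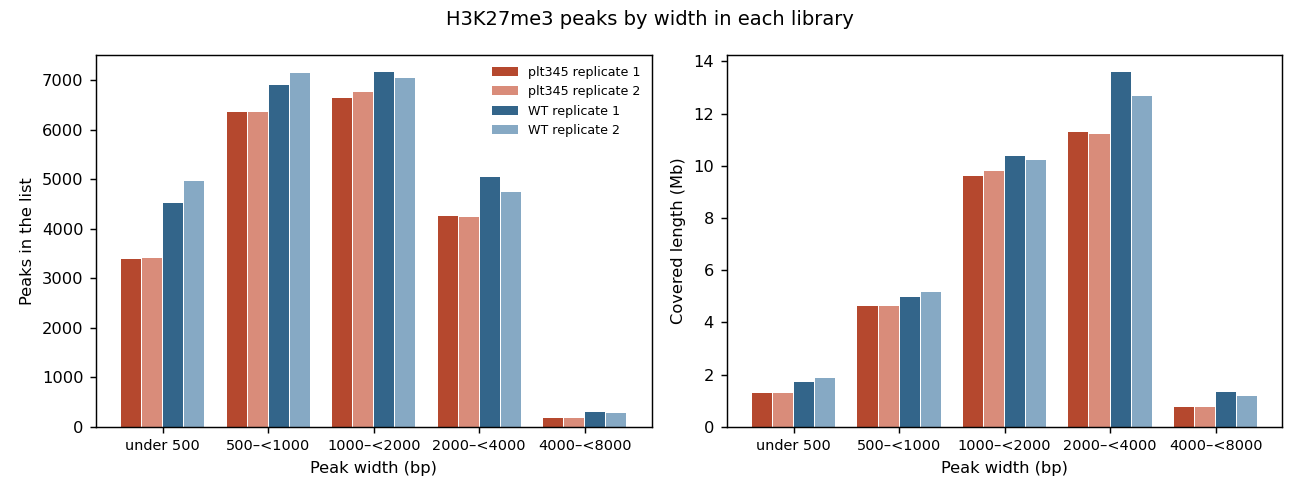
Number of H3K27me3 peaks (left) and their covered length in Mb (right) by peak width in bp, with plt345 left of WT and 1 bar for each library. The plt345 libraries lie below the WT libraries in every width class, with ratios of peak number of 0.597 for 4000 to under 8000 bp and 0.715 below 500 bp, and of 0.868 to 0.944 between.

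Most regions kept the mark. Of the 27526 regions, 15954 (58.0%) were present in all 4 libraries. A further 2412 were present in both WT libraries and absent from both plt345 libraries (8.76% of all regions) and are called lost, and 762 (2.77%) showed the reverse and are called gained. The remaining 8398 regions were present in other combinations of libraries. Many were present in 1 library only: 734 and 812 in plt345 replicates 1 and 2, and 1507 and 1548 in WT replicates 1 and 2. Replicates of a genotype thus also differed in presence. Regions of both WT libraries that 1 plt345 library still held numbered 1121 for plt345 replicate 1 and 1123 for replicate 2, and regions of both plt345 libraries that 1 WT library held numbered 397 for WT replicate 1 and 290 for replicate 2. Almost as many WT regions thus stood between kept and lost as were lost.

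Within kept regions the domain was shorter in plt345. Peaks covered a mean of 1575 bp of a kept region in each plt345 library, against 1726 and 1684 bp in WT, a ratio of 0.923. The median covered length was 1400.5 and 1408.5 bp in plt345 and 1563.5 and 1527 bp in WT, so that the genotypes did not overlap in either measure. Of the 15954 kept regions, 6360 (39.9%) were narrowed, with both plt345 lengths below both WT lengths, 2275 (14.3%) were widened and 7319 (45.9%) overlapped. Narrowed regions thus outnumbered widened ones by 2.80 to 1. Leaving out any 1 library raised the widened count to between 3695 and 4316, because fewer libraries have to be ordered. Widened regions numbered 4316 when plt345 replicate 1 was left out, 4223 for plt345 replicate 2, 4147 for WT replicate 1 and 3695 for WT replicate 2, and narrowed regions still outnumbered them by 1.95 to 2.33.

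The shortening lay in small shifts of the boundaries. Each kept region has a left and a right edge, and an edge was called retreated when it lay at least 150 bp further in for both plt345 libraries than for both WT libraries. Of 31908 edges, 3019 (9.46%) had retreated and 1387 (4.35%) had advanced. Left and right edges contributed alike, with 1470 and 1549 retreats and 733 and 654 advances. Retreat was mostly one-sided: 2693 regions had 1 retreated edge, 163 had both, and in 183 regions one edge had retreated while the opposite edge had advanced. The distance was small, with a median of 264 bp among retreated edges (quartiles 194 and 537.5 bp) and of 301 bp among advanced ones (208 and 523.5 bp). A retreat of more than 1000 bp was seen at 259 edges (8.58% of those retreated). Over all kept regions the mean plt345 edge lay inside the mean WT edge at 64.7% of left and 65.4% of right edges, by a median of 44 and 45 bp.

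These shifts were of the order of the disagreement between replicates. The median distance between the same edge in the plt345 pair was 95 bp and in the WT pair 63 bp, and between a plt345 and a WT library it was 112 to 114 bp. Edges at least 150 bp apart made up 36.4% in the plt345 pair, 25.3% in the WT pair and 40.8 to 41.6% across genotypes. What set the genotypes apart was direction, since each of the 4 pairs of a plt345 with a WT library had a median inward shift of 36 to 44 bp, against 0 bp in the plt345 pair and -4 bp in the WT pair. Of the 6360 narrowed regions, 2326 (36.6%) had a retreated edge and 179 (2.81%) were split, while 3881 (61.0%) had neither and were shortened by less than 150 bp at an edge or by edges and gaps that differed among libraries.

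A few domains lost most of their length. The 6 with the widest gap between the higher plt345 and the lower WT covered length were picked for that gap, so their values are a description. On chromosome 3 from 24166290 to 24170744, peaks covered 1477 and 1238 bp in plt345, against 4440 and 4384 bp in WT. There the left edge lay at 24168716 and 24168740 in the plt345 libraries and at 24166305 and 24166290 in the WT libraries, a retreat of 2411 bp, and no other antibody had a peak on the region. On chromosome 7 from 22358331 to 22361067, only 362 and 291 bp were covered in plt345, against 2639 and 2644 bp in WT. Both were cases in which a nearly constant WT domain was reduced to a fragment in both plt345 libraries. On chromosome 5 from 6173705 to 6177767 the covered length was 742 and 878 bp in plt345 and 4039 and 2920 bp in WT, with the right edge 2408 bp further in. EMF2b and PLT5 peaks were present there in every library analysed. The region of chromosome 1 from 7137153 to 7142563 had 2405 and 2159 bp in plt345 and 4969 and 4615 bp in WT, and carried H3K4me3, EMF2b and PLT5 in every library analysed. The other 2 were chromosome 11 from 7048507 to 7052195, with 882 and 1457 bp in plt345 and 3640 and 3689 bp in WT, and chromosome 8 from 2613475 to 2616833, with 392 and 543 bp in plt345 and 3313 and 2555 bp in WT. The longest single retreat was 3266 bp, at the left edge of chromosome 1 from 41297621 to 41302208, where 1040 and 1020 bp were covered in plt345 and 2676 and 4544 bp in WT, so that the WT libraries themselves differed.

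Domains also extended in plt345, by similar distances. On chromosome 1 from 35439006 to 35442748 peaks covered 3456 and 3735 bp in plt345 and 321 and 284 bp in WT. The left edge lay at 35439261 and 35439006 in the plt345 libraries and at 35442428 and 35442433 in the WT libraries, an advance of 3167 bp, while the right edges lay between 35442716 and 35442748 in all 4. On chromosome 10 from 10202613 to 10205648 the covered length was 2959 and 2687 bp in plt345 and 441 and 404 bp in WT, with an advance of 2124 bp on the left. In both cases a WT peak shorter than 500 bp lay at the right end of a plt345 domain of kilobases. The 4 next largest extensions, on chromosomes 10, 7, 8 and 11, reached 3164 to 4029 bp in plt345 libraries and 471 to 1528 bp in WT libraries.

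Counted in bases, edges gave up more H3K27me3 than whole regions did. Bases covered in both WT libraries and in neither plt345 library came to 3.62 Mb. Of these, 1.62 Mb (44.7%) lay at the edges of regions that plt345 kept, 1.203 Mb (33.2%) in regions lost whole, 0.339 Mb (9.34%) in gaps inside kept regions and 0.464 Mb (12.8%) in regions that 1 plt345 library had lost. The reverse set, covered in both plt345 libraries and neither WT library, came to 1.66 Mb and was divided much alike, with 0.721 Mb (43.4%) at edges, 0.531 Mb (32.0%) in gained regions, 0.236 Mb (14.2%) in gaps and 0.174 Mb (10.4%) in the rest. The core covered in all 4 libraries was 19.5 Mb. Edge retreat and whole loss thus had nearly the same shares in both directions, and the directions differed in amount. The order of the shares of lost bases depended on the peaks used: with peaks above the 25th percentile of −log10 q in each list, whole regions held 41.3% and edges 37.0%.

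**Figure D2:**
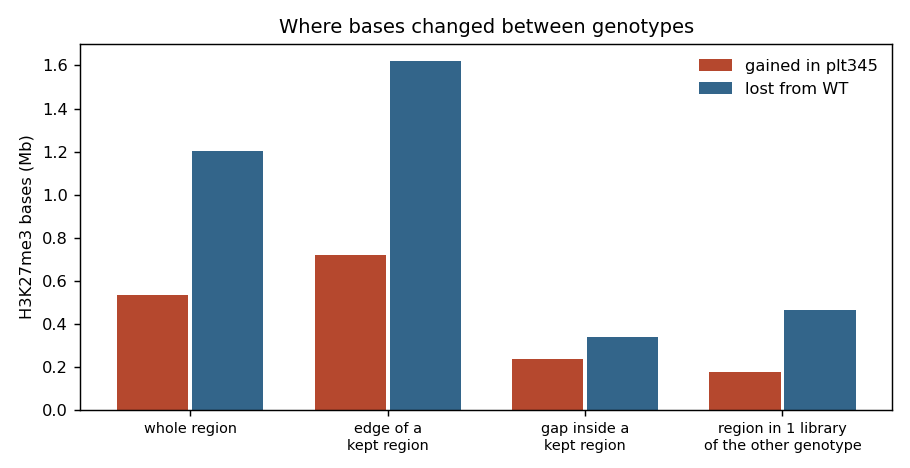
H3K27me3 bases in Mb that are gained in plt345 or lost from WT, as 1 bar each, divided by where they lie: in whole regions, at the edges of kept regions, in gaps inside kept regions, or in regions that 1 library of the other genotype holds. Edges hold 0.721 Mb of the gained and 1.62 Mb of the lost bases, and whole regions hold 0.531 Mb of the gained and 1.203 Mb of the lost bases.

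Narrowing went with a lower significance of the peak in plt345. Of the kept regions, 10578 (66.3%) had a lower −log10 q in both plt345 lists than in both WT lists, and among these 4722 (44.6%) were narrowed and 1197 (11.3%) widened, with 2115 edges retreated and 709 advanced. In the 824 regions (5.16%) with a higher −log10 q in both plt345 lists the balance turned, with 170 narrowed (20.6%) and 317 widened (38.5%), and with 113 edges retreated and 232 advanced. In the 4552 regions where −log10 q overlapped, 1468 (32.2%) were narrowed and 761 (16.7%) widened. Fold enrichment did not separate the regions in that way: 44.8% were narrowed and 14.3% widened among the 4519 with a higher fold in plt345, against 37.6% and 18.1% among the 4121 with a lower one. These classes were chosen after the values were seen. Width, −log10 q and fold enrichment are values of the same called peaks, so the classes are not independent of the narrowing. A −log10 q depends on depth and background as well as on enrichment, and the part of depth in the narrowing was not tested.

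Fragmentation was rare and balanced. A kept region held 1.07 peaks on average in each plt345 library and 1.06 and 1.08 in WT, and 6.97 and 6.84% of kept regions held 2 or more peaks in plt345, against 5.94 and 7.36% in WT. Both measures overlapped. The gaps inside kept regions summed to 975 and 954 kb in plt345 and to 796 and 1006 kb in WT, which also overlap. More peaks in both plt345 libraries than in both WT libraries were found in 205 regions (1.28%), called split, and fewer in 210 (1.32%), called joined, while 13449 regions (84.3%) held 1 peak in every library. The balance of split to joined regions was 0.976 and changed sides with the settings, between 0.639 without WT replicate 1 and 2.62 when all lists were held to equal covered length. Without 1 library the split regions numbered 357 (without WT replicate 2), 530 (without plt345 replicate 1) and 522 (without plt345 replicate 2), and the joined ones 465 (without WT replicate 1) and 397 (without WT replicate 2).

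Splits occurred in long domains and opened gaps of similar size. The 205 split regions had a median span of 3517 bp, and the 210 gaps that opened in them had a median of 654.5 bp (quartiles 587.5 and 736 bp, longest 1751 bp). The gaps closed in joined regions had a median of 643.5 bp. Among regions with a mean length of 4000 to under 8000 bp, 7.02% were split and 5.26% joined, and below 500 bp none was either. On chromosome 8 from 165685 to 170441, 3 peaks in each plt345 library, covering 3007 and 3111 bp, stood where each WT library had 1 peak, of 4603 and 4665 bp. The same division of 1 WT peak into 3 was seen on chromosome 4 from 17199781 to 17204016, with 2885 and 2815 bp in plt345 and 4099 and 3987 bp in WT, and on chromosome 3 from 15440857 to 15444649, with 2313 and 2297 bp in plt345 and 3793 and 3656 bp in WT. The region with the longest WT peak, on chromosome 3 from 15777876 to 15785415, had 3 peaks in each plt345 library covering 4802 and 5174 bp, against 2 peaks and 1 peak covering 6783 and 7442 bp in WT. In the other direction, chromosome 3 from 32948301 to 32951449 had 1 peak of 3110 and 3086 bp in plt345, against 3 peaks covering 1562 and 1398 bp in WT.

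Lost regions were mostly short in WT. By mean covered length in the WT libraries, 44.9% of WT regions below 500 bp were lost (1116 of 2488), 17.0% of those of 500 to under 1000 bp, 3.96% of those of 1000 to under 2000 bp and 0.555% of those of 2000 to under 4000 bp (29 of 5224). The 285 WT regions of 4000 to under 8000 bp were all present in at least 1 plt345 library. Gained shares by mean length in the plt345 libraries were 12.1% below 500 bp (165 of 1368), 7.13%, 3.30% and 0.744% in the next 3 classes (34 of 4572 in the last), and 0 of 165 above. Lost regions had a median of 519.5 bp in WT (quartiles 400 and 744 bp), 294 (12.2%) exceeded 1000 bp and the longest covered 3380 bp. Gained regions were longer, with a median of 753.5 bp in plt345 (529 and 1130 bp) and 243 (31.9%) above 1000 bp. By mean length over the 4 libraries, narrowing took 36.4% of kept regions below 500 bp and 46.8% of the 171 regions of 4000 to under 8000 bp.

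Lost regions were also weak ones in the WT lists. Each peak was given its percentile rank by −log10 q within its own list, which sets aside the different levels of the lists, and a region took the rank of its strongest peak. The median rank of lost regions was 26.0 and 26.6 in the WT lists, and that of regions held by both WT and 1 plt345 library was 30.8 and 31.3, against 64.5 and 64.2 for kept regions. The share of WT regions lost declined over 10 bins of mean WT rank, with 42.9% in the lowest bin (335 of 781), 22.7% in bin 3, 11.6% in bin 5 and 1.00% in the highest (23 of 2301). Gained regions showed the same profile in the plt345 lists, with median ranks of 25.7 and 26.5 in plt345, against 59.6 and 60.0 for kept regions there. The share gained was 19.7% in the lowest bin of plt345 rank and 0.260% in the highest.

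**Figure D3:**
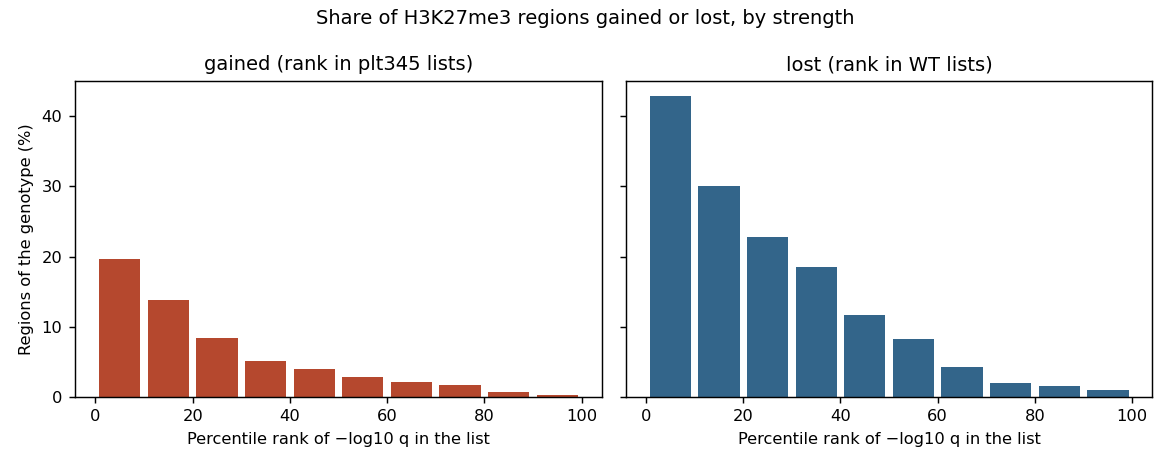
Share in % of H3K27me3 regions gained, among those of both plt345 libraries (left), and lost, among those of both WT libraries (right), in 10 bins of within-list percentile rank of −log10 q (x axis). The share gained is 0.260% in the strongest plt345 bin and 19.7% in the weakest, and the share lost 1.00% in the strongest WT bin and 42.9% in the weakest.

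The order of strength among kept regions was more alike within a genotype than across. Over the 15954 kept regions, the rank correlation of −log10 q was 0.818 for the plt345 pair, 0.889 for the WT pair and 0.730 to 0.741 for the 4 pairs across genotypes. Pearson's r of covered length was 0.901 for the plt345 pair, 0.926 for the WT pair and 0.836 to 0.842 across. Regions are not independent replicates and share the background of their library. Ranked among the kept regions alone, where upward and downward moves must balance, 681 regions were lower in both plt345 lists by at least 20 points and 689 were higher.

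A small set of lost regions stood against the rule that losses were weak. The 6 lost regions with the highest mean rank in the WT lists, which were picked for strength, all carried EMF2b in each of its 4 libraries and PLT5 in both WT libraries, and 5 of them were shorter than 500 bp in both WT libraries. Over all lost regions EMF2b was present at 27.4 and 31.5% in plt345 and 28.4 and 27.1% in WT, and PLT5 at 23.2 and 21.6% in WT. Among the 23 lost regions with a mean WT rank above 90, EMF2b was present at 69.6 and 69.6% in plt345 and 65.2 and 69.6% in WT, and PLT5 at 69.6 and 69.6% in WT. Similar shares were found at short kept regions. The 31 kept regions of that rank with a mean WT length below 500 bp had EMF2b at 67.7 and 71.0% in plt345 and 61.3 and 67.7% in WT. PLT5 was present at 64.5 and 64.5% of them in WT. Presence was scored over the whole merged region, which for kept regions also takes in plt345 peaks and can exceed the WT length. The 17 lost regions of that rank and length had EMF2b at 82.4 and 82.4% in plt345 and 70.6 and 76.5% in WT. On chromosome 8 from 5818143 to 5818521 neither plt345 library had an H3K27me3 peak, against peaks of 373 and 358 bp in WT at −log10 q of 19.1 and 19.5 and a fold of 5.59 and 5.84, which put them at ranks of 99.7 and 99.8. On chromosome 12 from 13342280 to 13342652 there was again no plt345 peak, against WT peaks of 372 and 358 bp at −log10 q of 18.1 and 18.4. The same held on chromosome 1 from 39197985 to 39198450, with WT −log10 q of 17.2 and 14.6, and on chromosome 1 from 39118546 to 39118900, with 15.6 and 14.4. The last 2 were chromosome 12 from 13408030 to 13409026, the longest at 989 and 997 bp in WT, and chromosome 12 from 4678327 to 4678708. H3K4me3 was absent from all 6 in every library, except for 1 plt345 library at chromosome 1 from 39197985.

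The 6 gained regions with the highest mean rank in the plt345 lists were also picked for strength. Their mean ranks were at most 95.7 in the plt345 lists, against at least 98.3 in the WT lists for the 6 lost ones, and they were longer. None carried EMF2b in any library. Over all gained regions EMF2b was also infrequent, at 14.6 and 16.7% in plt345 and 12.2 and 11.4% in WT. Peaks covered 1259 and 1211 bp in plt345 and none in WT on chromosome 10 from 16890486 to 16891751, at −log10 q of 7.44 and 6.58. On chromosome 11 from 20907405 to 20909585 they covered 2104 and 2145 bp in plt345 and none in WT, at 7.36 and 6.42. The next 3 lay on chromosome 11 from 10149846 to 10151474, chromosome 4 from 3586324 to 3589180 and chromosome 1 from 18892507 to 18894369. The sixth, on chromosome 6 from 5800735 to 5802554, was the only one with H3K4me3, in all 4 libraries, and with PLT5, in both WT libraries.

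Peaks that are both short and strong were then counted as a class, chosen after these regions had been seen. Peaks below 500 bp with a rank above 75 numbered 177 and 153 in plt345 and 219 and 285 in WT, a ratio of 0.655 (exact two-sided permutation p = 0.333, n = 2 each), and the ratio was 0.527 to 0.727 with other limits on width and rank. All peaks below 500 bp had a ratio of 0.715, so much of this shortfall was shared by short peaks of any rank. The short strong peaks made up 0.849 and 0.731% of the plt345 lists and 0.914 and 1.18% of the WT lists. The plt345 counts lay below both WT counts, at 165 ± 17.0 in plt345 and 252 ± 46.7 in WT (SD, n = 2 each). Of the 127 regions that were short and strong in both WT libraries, 43 (33.9%) were lost, 61 were kept and 23 were held by 1 plt345 library, against 18 lost (0.372%) of the 4844 longer strong regions. Among all WT regions below 500 bp, 44.9% were lost (1116 of 2488), so short strong regions were lost less often than short regions at large. Of the 51 regions short and strong in both plt345 libraries, none was gained. Over all pairs of libraries, EMF2b peaks overlapped 44.6 to 57.1% of short strong peaks and 20.7 to 30.3% of the other peaks. PLT5 overlapped 41.8 to 49.7% of the short strong and 18.0 to 24.3% of the others, and H3K4me3 36.1 to 45.2% and 17.7 to 24.9%, so that all 3 antibodies were found more often on the short strong peaks. A mean WT length below 500 bp and a mean WT rank above 75 were found in 78 kept and 52 lost regions. The kept ones carried EMF2b at 59.0 and 62.8% in plt345 and 52.6 and 57.7% in WT. The lost ones carried it at 55.8 and 59.6% in plt345 and 51.9 and 55.8% in WT. H3K4me3 was present at 50% and 48.7% of the kept in plt345 and 52.6 and 51.3% in WT, against 19.2 and 19.2% of the lost in plt345 and 21.2 and 23.1% in WT. The lengths searched were not equal. Presence was scored over the whole merged region, which takes in plt345 peaks where a region was kept. The median WT length was 451.5 bp in the kept and 349 bp in the lost ones. These differences across regions were not tested.

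The balances did not depend on the processing to the same degree. With 3.17 lost regions for each gained one, the excess of whole loss was 1.10 when every list was held to an equal number of its strongest peaks and 0.485, with more gained than lost, when the lists were held to an equal covered length. The ratio of narrowed to widened regions was 3.03 and 3.15 at those settings, and it lay between 1.95 and 3.15 over all settings tried. The ratio of retreated to advanced edges was 2.18, lay between 1.65 and 2.28 over the settings with a 150 bp shift, and was 2.56 with a shift of 1 bp and 2.23 with 500 bp. Without 1 library, lost regions numbered 4162 (without WT replicate 1) and 4081 (without WT replicate 2), gained regions 1171 (without WT replicate 1), 1640 (without plt345 replicate 1) and 1557 (without plt345 replicate 2), and retreated edges 4857 to 6480 and advanced edges 2605 to 3101 over the 4 choices. Fewer libraries have to concur when 1 is left out, so more regions and edges meet each definition.

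**Figure D4:**
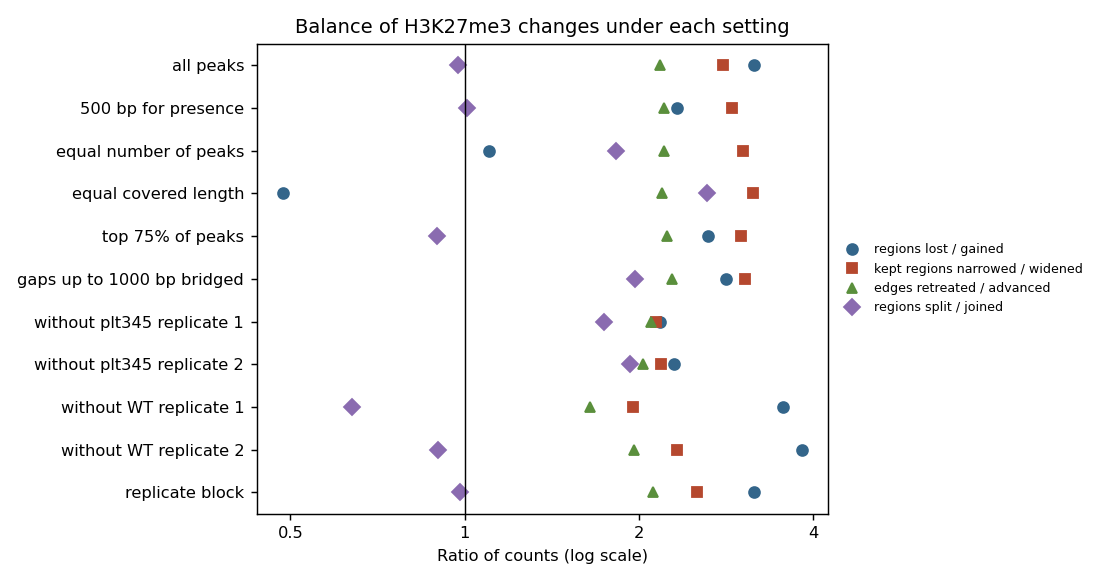
Ratio on a log axis of regions lost to gained, narrowed to widened and split to joined, and of edges retreated to advanced, under each processing setting. Narrowed to widened stays between 1.95 and 3.15 and retreated to advanced, all with a 150 bp shift, between 1.65 and 2.28, while lost to gained runs down to 0.485 at equal covered length and split to joined lies on both sides of 1. Settings that drop whole peaks leave the boundaries of the other peaks as called.

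The smaller map was seen along all 12 chromosomes. The ratio of covered length in plt345 to WT lay between 0.840 on chromosome 3 and 0.907 on chromosome 4, and the genotypes did not overlap on any chromosome. Narrowed regions made up 36.6% of kept regions on chromosome 4 to 44.3% on chromosome 3, and retreated edges 8.51% on chromosome 4 to 11.2% on chromosome 7, against advanced edges of 3.56% on chromosome 3 to 5.33% on chromosome 8. The share of plt345 regions that were gained lay between 3.21% on chromosome 7 and 5.61% on chromosome 5, and the share of WT regions that were lost between 10.5% on chromosome 4 and 13.1% on chromosome 9. Lost bases were divided alike on every chromosome, with 30.5 to 37.2% in whole regions and 38.8 to 47.6% at edges. When each chromosome was divided into 10 parts of equal length, with its end taken as the last peak of any list, the ratio was 0.932 in part 4, 0.928 in part 5 and 0.851 to 0.886 in the others. The plt345 libraries lay below the WT libraries in 104 of the 120 parts of single chromosomes, overlapped them in 14 and lay above them in 2. Those 2 were part 2 of chromosome 4, with 252 and 253 kb in plt345 and 234 and 225 kb in WT, and part 4 of chromosome 10, with 64.9 and 65.1 kb in plt345 and 60.1 and 56.1 kb in WT.

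Windows of 1 Mb gave a finer view. Of 379 windows, 339 held at least 20 regions of both WT libraries, and in 282 of these (83.2%) both plt345 values lay below both WT values, with 35 overlapping and 22 the other way. The ratio ranged from 0.665 to 1.24 with a median of 0.872, and the median share of regions lost was 11.1% (quartiles 8.51 and 14.6%). The largest shares lost were 27.5% on chromosome 10 from 22 to 23 Mb (11 of 40 regions), 27.1% on chromosome 10 from 19 to 20 Mb (13 of 48) and 27.03% on chromosome 9 from 5 to 6 Mb (10 of 37). In the second of these, 40.8 and 43.8 kb were covered in plt345, against 60.6 and 61.8 kb in WT. No region was lost in 4 windows, among them chromosome 1 from 18 to 19 Mb, where 7 were gained and the covered length was 55.2 and 52.4 kb in plt345 and 45.9 and 42.3 kb in WT. The highest ratio was on chromosome 11 from 8 to 9 Mb, with 80.6 and 84.9 kb in plt345 and 68.1 and 65.4 kb in WT. The windows with more in plt345 lay mostly where H3K27me3 was sparse. In 4 classes of mean covered length over the 4 libraries, from sparse to dense, they numbered 14, 5, 2 and 1. The ratio in the classes was 0.917, 0.873, 0.866 and 0.861. The share gained was 6.33, 4.84, 3.85 and 3.17% over these classes, and the share lost 11.9, 12.5, 11.9 and 11.1%. The classes were formed after the window values were seen, and the covered lengths that set them also enter the ratio.

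**Figure D5:**
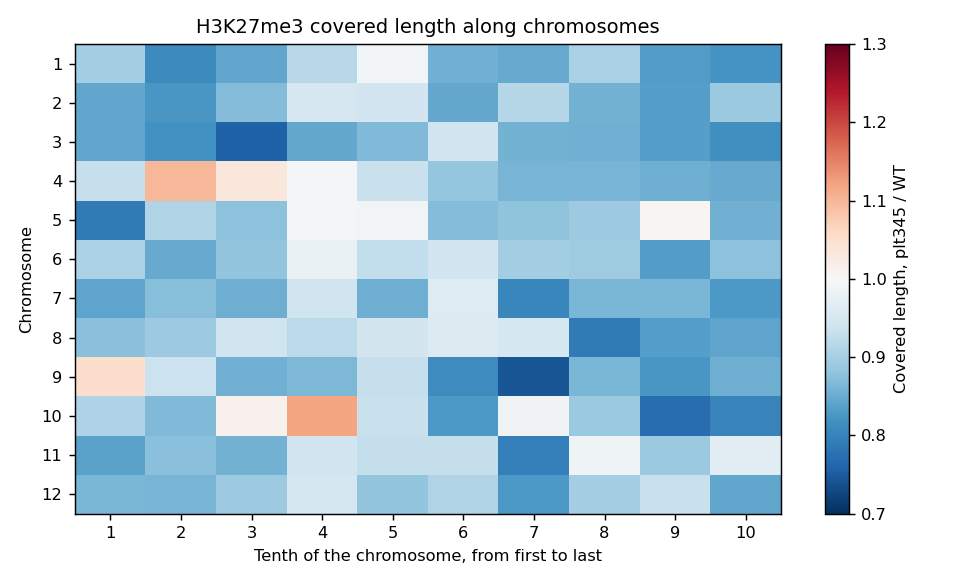
Ratio of H3K27me3 covered length, plt345 to WT, in 10 equal parts (x axis) along each of the 12 chromosomes (y axis), with blue below and red above 1. Of the 120 parts, 104 have both plt345 libraries below both WT libraries, 14 overlap and 2, on chromosomes 4 and 10, have plt345 above WT.

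The bases given up at edges carried less of the other antibodies than the core bases did. H3K4me3, a mark of the starts of active genes, covered 4.98 and 5.05% of the edge-lost bases in plt345 and 6.04 and 5.97% in WT, against 8.28 and 8.36% of the core bases in plt345 and 9.04 and 8.83% in WT. EMF2b covered 5.77 and 7.27% of the edge-lost bases in plt345 and 8.33 and 7.73% in WT, and PLT5 covered 5.23 and 4.396% in WT. Of the core bases, EMF2b covered 8.47 and 9.99% in plt345 and 10.2 and 9.60% in WT, and PLT5 9.12 and 7.85% in WT. On core bases too the plt345 libraries lay below the WT libraries for H3K4me3, while for EMF2b they overlapped. On edge-lost bases the plt345 libraries lay below the WT libraries for H3K4me3, at 5.01 ± 0.0462% against 6.002 ± 0.0474%, and for EMF2b, at 6.52 ± 1.06% against 8.03 ± 0.425% (SD, n = 2 each; exact two-sided permutation p = 0.333 for both). Bases of regions lost whole were covered more often, by H3K4me3 at 10.9 and 10.7% in plt345 and 14.3 and 13.5% in WT, and by EMF2b at 17.8 and 20.7% in plt345 and 20.7 and 19.5% in WT, where the genotypes overlap. Whole-gained bases ran the other way, with H3K4me3 at 9.22 and 8.65% in plt345 and 6.71 and 6.61% in WT, and EMF2b at 6.69 and 7.66% in plt345 and 5.84 and 5.30% in WT.

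Among kept regions, those that widened or joined carried EMF2b less often than those that narrowed or split. EMF2b was present at 29.3 and 33.0% of narrowed regions in plt345 and 30.3 and 29.3% in WT, against 18.2 and 20.97% of widened regions in plt345 and 20.1 and 18.9% in WT. Split regions had it at 36.6 and 40.0% in plt345 and 35.1 and 33.2% in WT, and joined regions at 18.6 and 23.3% in plt345 and 23.3 and 21.9% in WT. PLT5 was present at 26.0 and 23.0% of narrowed and 19.6 and 17.1% of widened regions in WT. H3K4me3 ran the same way, at 23.6 and 23.6% of narrowed regions in plt345 and 24.2 and 23.2% in WT, against 21.2 and 21.2% of widened regions in plt345 and 19.4 and 19.5% in WT. Over all kept regions EMF2b was present at 26.0 and 29.5% in plt345 and 27.2 and 26.2% in WT, PLT5 at 24.3 and 21.7% in WT, and H3K4me3 at 23.3 and 23.2% in plt345 and 23.4 and 22.8% in WT. The 7319 kept regions whose lengths overlapped between genotypes had EMF2b at 25.5 and 29.0% in plt345 and 26.7 and 25.7% in WT. These shares lay between those of narrowed and widened regions in each library, nearer to the narrowed ones. EMF2b presence at narrowed, widened and joined regions overlapped between the genotypes. The differences between classes of regions hold in every library but were not tested, since regions are not replicates.

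Set beside the other antibodies, H3K27me3 was the one whose lost and gained bases were divided alike. Whole regions held 33.2% of its lost and 32.0% of its gained bases, against 28.1 and 52.4% for H3K4me3 and 46.5 and 71.7% for EMF2b. Edges held 44.7% of lost and 43.4% of gained H3K27me3 bases, 57.4 and 35.2% for H3K4me3 and 33.7 and 17.8% for EMF2b. Retreated edges outnumbered advanced ones for all 3, at 9.46 and 4.35% for H3K27me3, 4.51 and 2.75% for H3K4me3 and 9.87 and 2.39% for EMF2b. The H3K27me3 lists are broad peaks and the others narrow peaks, and the differences between antibodies were not tested.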

How the data were processed

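CUT&Tag peak lists of H3K27me3 from 2 plt345 and 2 WT root-tip libraries were compared, grouped by the genotype in the labels. The submitters' processing notes name MACS2 2.2.7.1, Bowtie2 2.4.4, Trim Galore 0.6.6 and deepTools 3.5.0. The sources used here do not give their roles, the control library, duplicate handling or the genome build. The authors deposited 1 broad peak list per library, so peaks were called per sample and not on pooled samples. The lists have no header and were read in the column order of MACS2, and their peak names record a broad cutoff of 0.1. The deposited fold enrichment is a ratio to the background modelled in that library. The deposited −log10 q is the authors' own value for each peak and was used only to describe, rank or filter within a list, or to class kept regions by the order of the 4 libraries. Other values used are the deposited start and end of each peak, in bp, and coordinates are printed 1-based on the unstated assembly of the lists.

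Peaks were merged into regions, and edges, gaps and bases were counted exactly from peak boundaries with Python 3.11.15, NumPy 2.4.6, pandas 2.3.3 and SciPy 1.17.1; figures were drawn with matplotlib 3.10.9. The classification was tested on simulated peak lists with known changes. No peak was shorter than 150 bp, so the minimum for presence removed none. Genotypes were compared over libraries by two-sided exact permutation tests (n = 2 each). Named regions are the 6 highest of each list (lost or gained by mean within-list rank of −log10 q, difference in covered length, edge shift, change in peak number), and the text gives the first of each. Alternatives were another presence or edge minimum, equal peak numbers, equal covered length, peaks above the 25th percentile of −log10 q, bridged gaps, each library left out and replicate pairs as a block. Other limits for short strong peaks were added after the data were seen. Regions, lists and tests were chosen with earlier results of these data known.

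Read depth per library is unknown, and peak numbers and −log10 q are the only guides to precision. Nothing states that replicates are separate plants, so the spread between them may be technical. Gene names and sequences are not used here, because the only gene table is of assembly ASM3414082v1 and no genome of the lists was given.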

Additional observations from a re-analysis of the deposited data

How the results depend on the processing

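The direction of the covered length (ratio below 1) and of the H3K4me3 and EMF2b cover of edge-lost bases (plt345 below WT), and the count of narrowed regions within 1.5 times, held at every alternative at which each could be computed. At equal covered length the first is fixed by construction. The alternatives changed only the H3K27me3 lists. The H3K4me3 and EMF2b lists stayed the same throughout, so the alternatives hardly probe the direction of their cover. Settings that drop whole peaks leave the boundaries of the other peaks as called, so they do not probe the calling of widths and edges. A minimum of 1 bp for presence changed nothing. With 500 bp for presence, whole regions held 27.5%, edges 37.0% and gaps 8.66% of lost bases, the median ranks were 33.2 (lost, WT) and 30.2 (gained, plt345), and the lowest chromosome share lost was 8.43%. Equal peak numbers gave 1455 lost, 1319 gained and 127 joined regions, shares of 26.4, 51.2 and 11.0%, ranks of 27.9 and 24.8, and chromosome shares of 6.70 to 10.1%. Equal covered length gave 988 lost, 2036 gained and 98 joined regions, shares of 22.0, 55.7 and 12.4%, ranks of 30.1 and 25.05, and chromosome shares of 5.36 to 7.70%. Peaks above the 25th percentile of −log10 q gave 923 advanced edges, 103 split and 115 joined regions, shares of 41.3, 37.0 and 5.38%, and ranks of 27.7 and 30.3. Bridged gaps gave 115 joined regions, shares of 25.9, 48.9 and 13.3%, and ranks of 24.5 and 24.6. Edge shifts of 1 and 500 bp gave 11700 and 813 retreated and 4568 and 364 advanced edges. With 1 library left out, the ranges were 3573 to 4162 lost, 1067 to 1640 gained, 3695 to 4316 widened, 297 to 530 split and 270 to 465 joined regions, 4857 to 6480 retreated and 2605 to 3101 advanced edges, shares of 33.0 to 38.6, 42.2 to 57.6 and 6.70 to 9.45%, ranks of 20.1 to 28.0 and 17.4 to 26.8, and chromosome shares from 15.4 to 16.2% (lowest) and 18.7 to 19.8% (highest). Nothing states that equal replicate numbers pair the samples. The differences in covered length between replicates 1 and 2 were uncorrelated across genotypes (r = -0.00425 over 15954 kept regions), which cannot exclude a shared batch. With the replicate block the shares were 38.8, 54.2 and 6.97%. The cause of these changes was not tested, except that leaving out a library asks fewer libraries to concur. Read depth is unknown, and what it limits was not tested.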

Other observations

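Most lost and gained regions stood alone, and the others lay side by side. Lost regions were 8.76% and gained ones 2.77% of all regions. At such shares most would stand alone under random placement too, so the counts are not a sign of isolation. Random placement among all regions would leave a larger part alone than was seen, above all for gained regions. Taking regions in order along a chromosome, 1801 of the lost ones (74.7%) had no lost neighbour, and 579 of the gained ones (76.1%) no gained neighbour. Runs of 2 lost regions numbered 217, runs of 3 numbered 42 and runs of 4 numbered 10. The longest lost run was 6 regions on chromosome 10 from 19924002 to 19979499, within the window that lost 27.1% of its regions, and the next was 5 regions on chromosome 9 from 5396635 to 5491265, within the window that lost 27.03%. The longest gained runs were 6 regions on chromosome 12 from 24282291 to 24328222 and 5 on chromosome 1 from 3288377 to 3316665. No test was made of these runs, which were looked for after the other results were known.

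Lost regions lay at a median of 3.70 kb from the nearest kept region, and 17.1% of them within 1 kb. Gained regions lay further off, at a median of 7.67 kb with 9.07% within 1 kb, and kept regions lay at a median of 4.02 kb from the next kept region with 14.7% within 1 kb. These distances are a description of the merged regions and were not tested.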
